A study of Mus musculus with 8 samples.

Results

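The genes described here are 34 mouse genes of endothelial cells, the cells that line blood and lymphatic vessels, chosen by name: receptors for vascular growth factors, junction and surface proteins, transcription factors, genes of sprouting vessels, arterial connexins and lymphatic genes. Of the 34 symbols, 33 had a row among the 19083 genes of the table, and Etv2, an early ETS factor of the endothelial lineage, was not analysed here. RNA was measured in the palatal shelves of 8 embryos at embryonic day 13.5, of the strain labelled C57BL/6 and with no treatment: 4 embryos without Pax9 (Pax9-/-, null 1 to 4), and as controls 2 heterozygotes (Pax9+/-) and 2 wild types (Pax9+/+). Pax9 is a paired-box transcription factor that the shelves need to grow and elevate. Levels are in FPKM, the fragments per kilobase of gene scaled to the total of fragments assigned to genes, and each library held 37069101 to 51210254 recovered reads. Pax9 itself lay between 7.19 and 10.3 FPKM in the nulls, against 26.2 to 35.8 FPKM in the controls. Each sample title carries a number, 56 for null 1, null 3, heterozygote 1 and wild type 1 and 44 for the rest. The labels do not say what that number stands for, nor which embryos had the same mother, and a p-value here covers no more than the variation among these 8 samples.

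Endothelial cells grow and sprout in response to VEGF, which other cells secrete and which is read by the tyrosine kinase receptors encoded by Kdr, Flt1 and Flt4. Angiopoietins act through the receptor Tek, with Tie1 as its partner, and steady the vessel once it is formed, while Notch ligands such as Dll4 limit how many cells lead a sprout. ETS factors such as Erg and Fli1 and SoxF factors (Sox7, Sox17 and Sox18) keep endothelial genes on, and Prox1 directs cells to a lymphatic fate. In the growing palate, vessels run through the mesenchyme, a tissue of mostly neural crest origin, and bring in blood.

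The RefSeq promoter table of GRCm38.p6, the assembly that mm10 names, held 26 promoters of 20 of the 34 genes. The 250 bases before each start were searched for letters typical of ETS and SOX sites, on both strands. The ETS letters AGGAAG were present in 12 of the 26 promoters, or 46.2%, and in 29.5% of all 32851 promoters of the table. The longer ETS letters CCGGAAGT were in 0 of the 26 and in 2.88% of all, and the SOX letters ACAAAG were in 6 of the 26 (23.1%) and in 16.5% of all. Neither ETS word contains the other, and a match describes the letters only. The promoters of 4 genes to which the results below return are printed 5′ to 3′ on the strand of the gene, with AGGAAG or its complement in capitals. Cd34 and Gja5 are shown because their null and control values did not overlap, and Robo4 and Tie1 because they differed between the first 4 and the last 4 libraries. The windows are chr1:194938571-194938820 on the plus strand for Cd34, chr3:97032152-97032401 on the plus strand for Gja5, chr9:37401722-37401971 on the plus strand for Robo4 and chr4:118489850-118490099 on the minus strand for Tie1.
Cd34: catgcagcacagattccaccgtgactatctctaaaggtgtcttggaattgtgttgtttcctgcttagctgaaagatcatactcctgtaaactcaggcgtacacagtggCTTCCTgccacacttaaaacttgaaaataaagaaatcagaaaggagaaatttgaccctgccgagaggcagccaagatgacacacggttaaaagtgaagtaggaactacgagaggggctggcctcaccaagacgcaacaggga
Gja5: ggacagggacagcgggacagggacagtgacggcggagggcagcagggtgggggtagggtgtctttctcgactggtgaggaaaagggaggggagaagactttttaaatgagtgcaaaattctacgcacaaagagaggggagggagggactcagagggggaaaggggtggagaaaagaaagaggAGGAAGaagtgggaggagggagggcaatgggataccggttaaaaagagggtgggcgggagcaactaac
Robo4: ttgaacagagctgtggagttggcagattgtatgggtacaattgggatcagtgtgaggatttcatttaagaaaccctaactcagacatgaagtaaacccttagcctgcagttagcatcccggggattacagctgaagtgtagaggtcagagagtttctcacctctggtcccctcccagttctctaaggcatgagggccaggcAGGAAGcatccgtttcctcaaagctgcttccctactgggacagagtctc
Tie1: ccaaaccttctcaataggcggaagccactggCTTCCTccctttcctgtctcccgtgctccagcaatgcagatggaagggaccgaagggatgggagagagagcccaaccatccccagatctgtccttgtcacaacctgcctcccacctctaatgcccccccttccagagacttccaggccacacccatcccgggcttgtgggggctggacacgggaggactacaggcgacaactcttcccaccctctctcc
Each of these windows held 1 match, whose first base lay 142 bases before the RefSeq start in Cd34, 68 in Gja5, 49 in Robo4 and 219 in Tie1. In the GENCODE annotation the genes start at other bases than in RefSeq. The Gja5 window lies inside the gene, which runs from 96904693 to 97077416. The annotated starts of Cd34 (194938819), Robo4 (37401897) and Tie1 (118490061 on the minus strand) fall inside their windows, for Cd34 at the very end. The Robo4 match lies downstream of its annotated start, and the Cd34 and Tie1 matches lie upstream of theirs.

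Endothelial RNA was readily measured in every embryo. Of the 33 genes, 31 reached 1 FPKM in at least 2 libraries and were tested, and 14 averaged 10 FPKM or more. The highest means were those of Plvap, which forms the diaphragms of vessel fenestrae, Aplnr, the apelin receptor, and Cd34, a surface sialomucin. Esm1, a proteoglycan secreted by the leading cells of sprouts, stayed under the limit at 0.706 to 0.820 FPKM in the nulls and 0.475 to 0.768 FPKM in the controls. Lyve1, a hyaluronan receptor of lymphatic vessels and of some macrophages, was almost absent, with 5 to 18 reads in the null libraries and 4 to 9 reads in the control libraries. Cdh5, the endothelial cadherin, was not among the 34 genes and stood at 41.4 to 45.9 FPKM in the nulls and 38.8 to 47.7 FPKM in the controls. In bulk tissue, fewer cells of a type and less RNA per cell cannot be told apart.

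**Figure D1:**
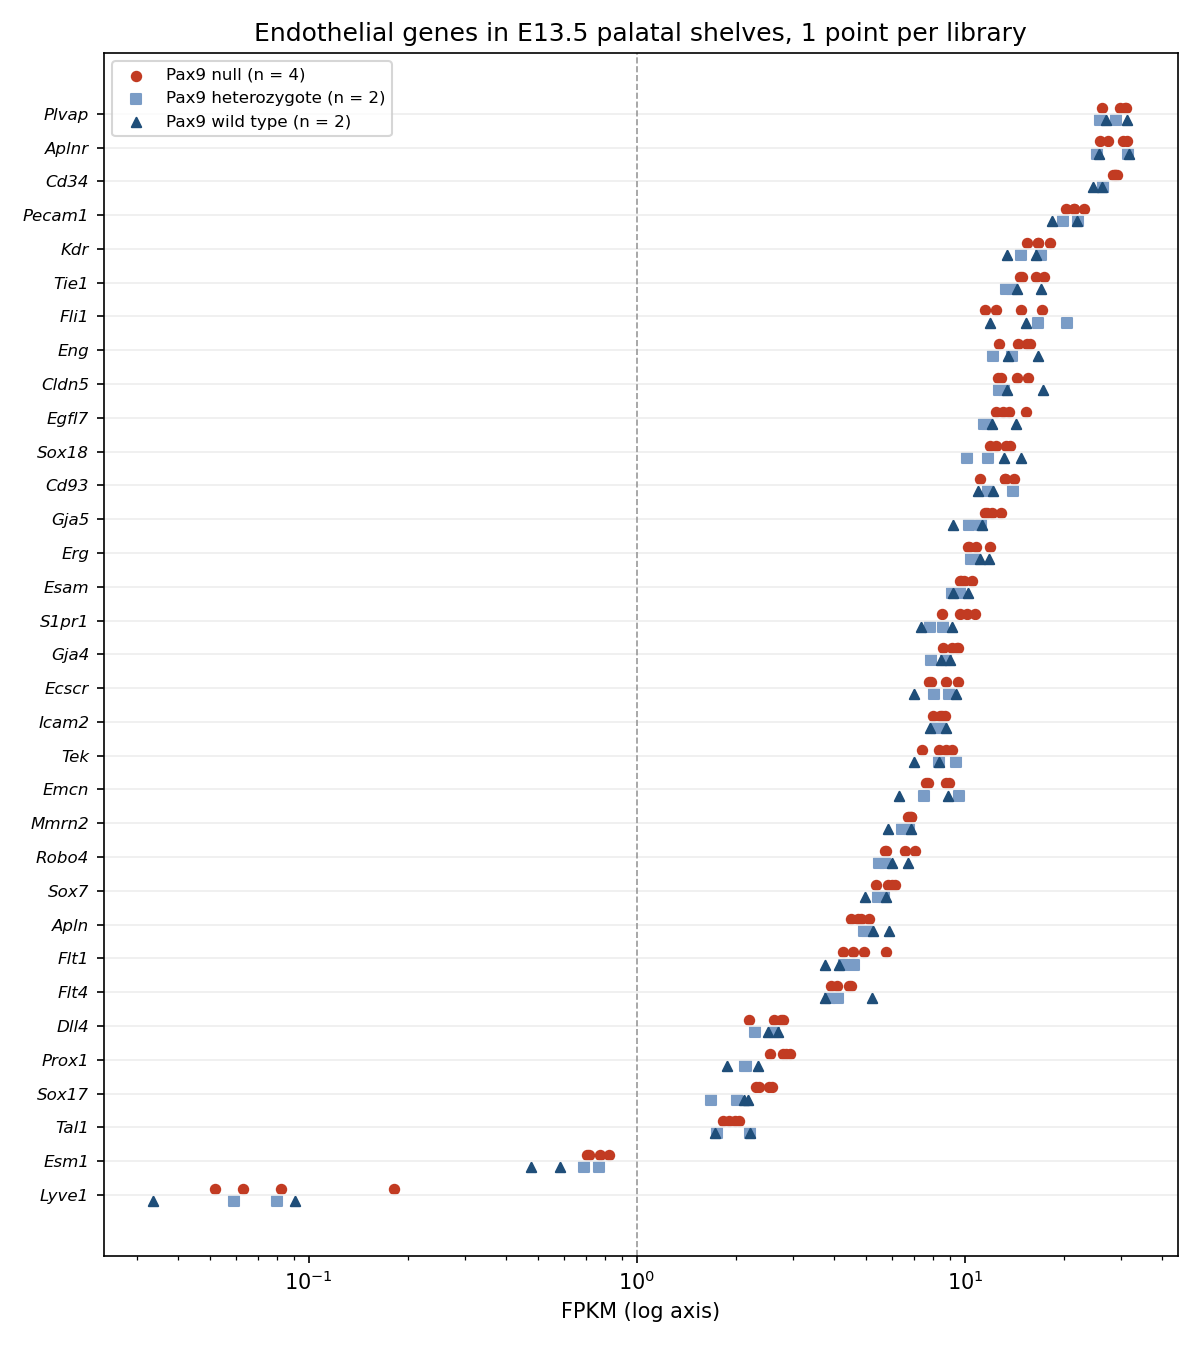
FPKM (log axis) of the 33 endothelial genes, sorted by mean, with 1 point per library: red circles for the 4 nulls, light squares for the 2 heterozygotes and dark triangles for the 2 wild types. The dashed line marks 1 FPKM; only Esm1 and Lyve1 lie below it, and null and control points overlap for most genes.

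Loss of Pax9 was not accompanied by a called change of any endothelial gene. Between null and control, 0 of the 31 tested genes were called (limma, adjusted p under 0.05), where 0.419% of the 13600 genes tested were called. At an unadjusted p under 0.05 there were 5 of 31, or 16.1%, against 7.15% of all tested genes: Prox1, Cd34, Sox17, S1pr1 and Gja5, each higher in null. The log2 change was above 0 for 26 genes and below 0 for 5, and its median was 0.06, beside −0.01 over all tested genes. The typical standard error of a log2 change was 0.09. The 95% interval of the log2 change lay within 0.5 of 0 for 30 of the 31 genes; that of Fli1 reached −0.56. Among the 31, no interval lay wholly below 0 and 5 lay wholly above it. The smallest adjusted p was that of Prox1, 0.189.

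**Figure D2:**
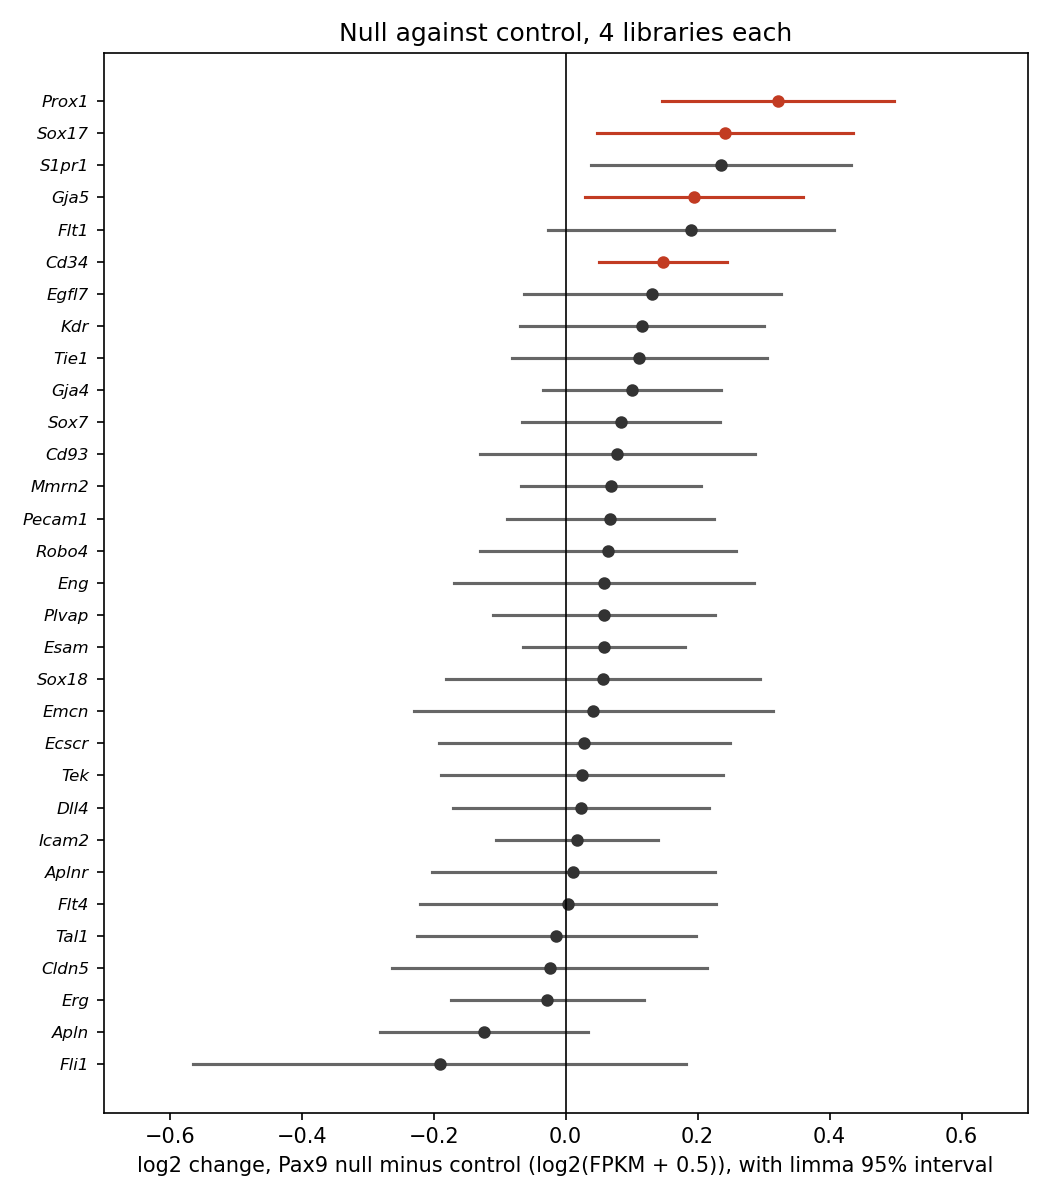
Log2 change of the 31 tested endothelial genes, null minus control on the log2(FPKM + 0.5) scale, with the 95% interval of limma; red marks the 4 genes whose null and control values did not overlap. All but 1 of the intervals lie within 0.5 of 0, and 5 exclude 0 before adjustment.

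For the VEGF receptors, null and pooled control values overlapped. Kdr, the main signalling receptor for VEGF-A (ENSMUSG00000062960, chromosome 5 from 75932827 to 75978458, minus strand), was at 15.4, 16.7, 16.7 and 18.2 FPKM in nulls 1 to 4, against 14.8 and 17.1 FPKM in the heterozygotes and 13.4 and 16.5 FPKM in the wild types. Flt1, a receptor that binds VEGF-A tightly and signals weakly, was at 4.24, 4.56, 4.94 and 5.76 FPKM in the nulls, against 4.28 and 4.61 FPKM in the heterozygotes and 3.76 and 4.13 FPKM in the wild types. For both genes wild type 1 was lowest and null 4 highest. For Flt1 both wild types were below every null and both heterozygotes, while the heterozygotes were within the null range. The log2 change was 0.12 ± 0.08 (standard error) for Kdr, 0.19 ± 0.10 for Flt1 and 0.00 ± 0.10 for Flt4, the VEGF-C receptor, with adjusted p-values of 0.905, 0.787 and 1.00 (limma).

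For the angiopoietin receptors, null and pooled control values overlapped too. Tie1 was at 17.4, 16.5, 14.9 and 14.7 FPKM in nulls 1 to 4, against 13.9 and 13.4 FPKM in the heterozygotes and 14.4 and 17.0 FPKM in the wild types. Tek was at 7.39, 8.35, 8.78 and 9.14 FPKM in the nulls, against 8.36 and 9.41 FPKM in the heterozygotes and 6.99 and 8.36 FPKM in the wild types. For Tie1 both heterozygotes were below every null and both wild types. Null 1 was the highest library for Tie1 and, among the nulls, the lowest for Tek. The log2 change between null and control was 0.11 ± 0.09 (standard error) for Tie1 and 0.03 ± 0.09 for Tek.

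Of the 10 junction, adhesion and surface proteins, 9 had a log2 change above 0 and 0 were called. Pecam1, an adhesion molecule of all endothelium and of platelets (ENSMUSG00000020717, chromosome 11 from 106654217 to 106750628, minus strand), was at 20.3, 21.5, 21.5 and 23.04 FPKM in the nulls, against 19.9 and 22.2 FPKM in the heterozygotes and 18.4 and 21.9 FPKM in the wild types. Plvap was at 30.9, 29.8, 26.2 and 30.7 FPKM in the nulls, against 25.9 and 28.9 FPKM in the heterozygotes and 26.9 and 31.1 FPKM in the wild types. Both genes thus overlapped between the groups. Cldn5, a tight junction protein, was at 14.4, 15.6, 12.6 and 12.9 FPKM in the nulls, against 12.8 and 13.1 FPKM in the heterozygotes and 13.5 and 17.4 FPKM in the wild types, with wild type 2 above all other libraries. Robo4, a receptor that steadies vessels, was at 7.04, 6.59, 5.76 and 5.72 FPKM in the nulls, against 5.47 and 5.72 FPKM in the heterozygotes and 5.99 and 6.70 FPKM in the wild types. For Cldn5 and Robo4 nulls 1 and 2 were above nulls 3 and 4. The log2 change of Esam, Icam2, Emcn, Cd93 and Ecscr, the other surface proteins, lay between 0.02 and 0.08.

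The signalling co-receptors and matrix proteins were all above 0 in log2 change, with 0 of 4 called. Eng, a co-receptor for TGF-beta family ligands, was at 14.6, 15.8, 12.7 and 15.5 FPKM in the nulls, against 12.2 and 13.9 FPKM in the heterozygotes and 13.5 and 16.7 FPKM in the wild types. Egfl7, a matrix protein that endothelial cells secrete, was at 15.3, 13.7, 12.5 and 13.1 FPKM in the nulls, against 11.4 and 11.7 FPKM in the heterozygotes and 12.1 and 14.4 FPKM in the wild types. In the annotation 7.37% of its exon bases are shared with Gm20532 on the same strand. Wild type 2 lay within or above the null range for both. S1pr1, a receptor for the lipid sphingosine 1-phosphate that restrains sprouting, averaged 9.78 ± 0.94 FPKM in the nulls and 8.23 ± 0.79 FPKM in the controls (SD, n = 4 each), a log2 change of 0.24 (limma, adjusted p = 0.535), and its groups overlapped. Mmrn2, a matrix protein that binds Cd93, had a log2 change of 0.07.

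Among the transcription factors, Fli1 varied most between libraries. It was at 11.5, 12.4, 14.9 and 17.1 FPKM in nulls 1 to 4, against 16.7 and 20.5 FPKM in the heterozygotes and 11.96 and 15.4 FPKM in the wild types, and its coefficient of variation over the 8 libraries, 20.3%, was the highest of the 31 tested genes. Both heterozygotes were above the first 3 nulls, and the wild types were within the null range. Its log2 change between null and control was −0.19 ± 0.17 (standard error). Sox18 was at 13.8, 13.4, 12.5 and 11.9 FPKM in the nulls, against 11.8 and 10.1 FPKM in the heterozygotes and 13.2 and 14.8 FPKM in the wild types, so that the heterozygotes were the lowest libraries and the wild types overlapped the nulls. Erg, Tal1 (a bHLH factor of blood and endothelial progenitors that erythroid cells also use) and Sox7 had log2 changes of −0.03, −0.01 and 0.08.

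The apelin pair showed little difference between null and control. Aplnr was at 27.4, 31.2, 25.8 and 30.4 FPKM in nulls 1 to 4, against 25.3 and 31.5 FPKM in the heterozygotes and 25.7 and 31.6 FPKM in the wild types. Its ligand Apln, made by the leading cells of sprouts (ENSMUSG00000037010, chromosome X from 48025146 to 48034853, minus strand), was at 5.10, 4.84, 4.73 and 4.50 FPKM in the nulls, against 5.02 and 4.94 FPKM in the heterozygotes and 5.24 and 5.89 FPKM in the wild types. For Apln both wild types were above all nulls, and the heterozygotes were within the null range. Apln was 1 of the 5 genes with a log2 change below 0, at −0.12 ± 0.07 (standard error, limma, adjusted p = 0.831), while that of Aplnr was 0.01 and that of Dll4 was 0.02.

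Gja4, an arterial connexin, was at 9.55, 9.12, 8.58 and 9.44 FPKM in the nulls, against 8.74 and 7.86 FPKM in the heterozygotes and 8.48 and 9.02 FPKM in the wild types. Null 3 was below heterozygote 1 and wild type 2, so the groups overlapped, and the log2 change was 0.10 ± 0.06 (standard error; limma, adjusted p = 0.853).

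For 4 of the 31 genes, or 12.9%, every null library was above every control library. These genes were Cd34, Gja5, Prox1 and Sox17. Of all tested genes, 1.83% had null values wholly above the control values. For 0 of the 31 were the null values wholly below. Over all 13600 tested genes, 698 did not overlap between null and control. Of those 698, 249 were higher in null and the larger part lower. The 0 among the 31 is thus not read as a result. None of the 4 was called over all tested genes.

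Cd34 (ENSMUSG00000016494, chromosome 1 from 194938819 to 194961279, plus strand), which mesenchymal cells and blood progenitors also make, was at 28.8, 29.0, 28.7 and 28.3 FPKM in nulls 1 to 4, against 26.5 and 26.3 FPKM in the heterozygotes and 24.5 and 26.1 FPKM in the wild types. The nulls lay within 1 FPKM of each other, and wild type 1 was the lowest control. The log2 change was 0.15 ± 0.04 (standard error), a 1.11-fold difference (limma, adjusted p = 0.337).

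Gja5, a connexin of arterial endothelium and of heart muscle (ENSMUSG00000057123, chromosome 3 from 96904693 to 97077416, plus strand), was at 11.7, 12.9, 12.1 and 11.5 FPKM in the nulls, against 11.2 and 10.3 FPKM in the heterozygotes and 9.19 and 11.3 FPKM in the wild types. Null 4 and wild type 2 were close, and wild type 1 was the lowest library. The log2 change was 0.19 ± 0.07 (standard error; limma, adjusted p = 0.551), and 0.14 without wild type 1.

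Prox1, which cells of the nervous system, the muscle and the liver also use (ENSMUSG00000010175, chromosome 1 from 190118035 to 190170714, minus strand), was at 2.56, 2.80, 2.84 and 2.92 FPKM in the nulls, against 2.13 and 2.15 FPKM in the heterozygotes and 1.89 and 2.34 FPKM in the wild types. These levels rest on 883 to 1214 reads in the null libraries and 689 to 742 reads in the control libraries. The log2 change, 0.32 ± 0.08 (standard error), was the largest of the 31 and equals 1.25-fold in FPKM + 0.5, which is less than the fold in FPKM. With a pseudocount of 0.1 in place of 0.5 the log2 change was 0.37. Lyve1, the other lymphatic gene, was near 0 in all 8 libraries.

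Sox17, the SoxF factor of arteries (ENSMUSG00000025902, chromosome 1 from 4490931 to 4497354, minus strand), was at 2.58, 2.31, 2.53 and 2.36 FPKM in the nulls, against 2.02 and 1.68 FPKM in the heterozygotes and 2.18 and 2.12 FPKM in the wild types. Heterozygote 2 was lowest, and null 2 stood just above wild type 1. The log2 change was 0.24 ± 0.09 (standard error; limma, adjusted p = 0.506). In the annotation 16.9% of its exon bases overlap Gm37587 on the other strand, and the library kit does not mark the strand.

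**Figure D3:**
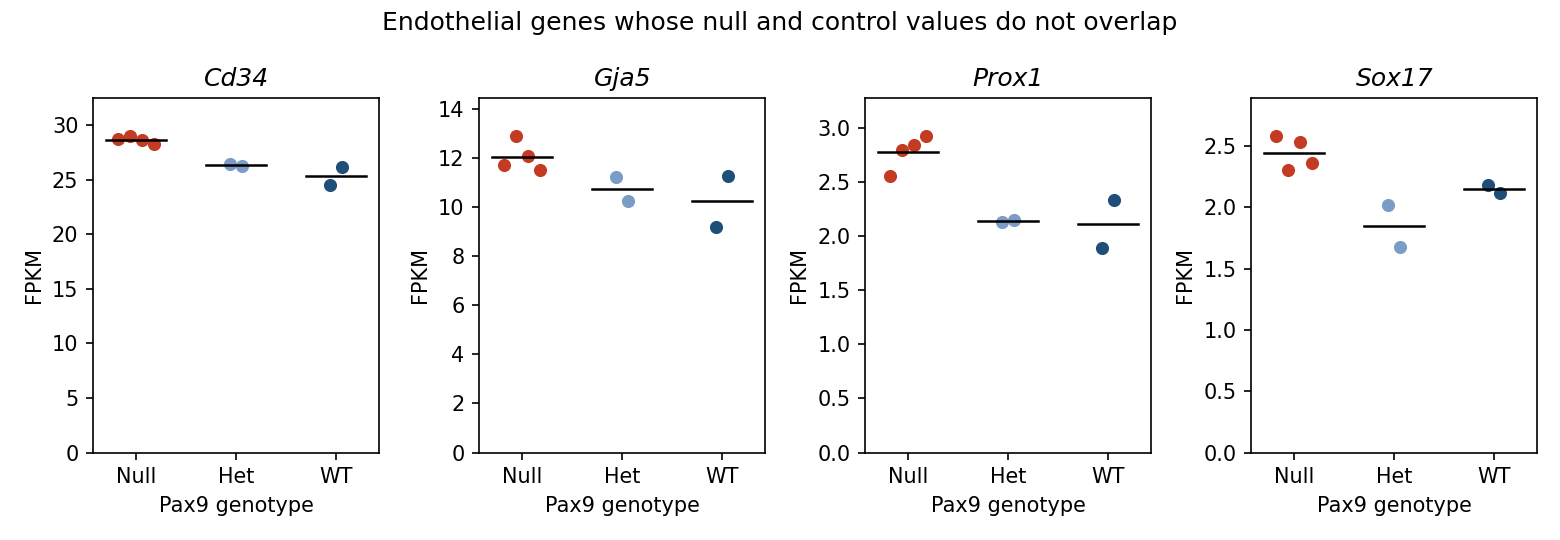
FPKM of Cd34, Gja5, Prox1 and Sox17 by Pax9 genotype (linear axes that start at 0), with 1 point per library and a line at the mean of each genotype. The 4 nulls lie above the 2 heterozygotes and the 2 wild types in each panel, with a narrow gap for Gja5 and Sox17.

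The controls were then taken apart by genotype. Between null and wild type 0 of the 31 genes were called (limma, 0.382% of all tested genes), with 5 of 31, or 16.1%, at an unadjusted p under 0.05, against 11.6% of all: Cd34, Prox1, Gja5 and Flt1 higher in null and Apln lower in null. Between null and heterozygote 0 of 31 were called (0.0809% of all), with 6 of 31, or 19.4%, at an unadjusted p under 0.05, against 6.95% of all: Sox17, Prox1, Sox18, Egfl7 and Cd34 higher in null and Fli1 lower in null. These comparisons share the null libraries. Between heterozygote and wild type 0 of 31 were called (0.0% of all), and Sox18, at 10.1 and 11.8 FPKM in the heterozygotes and 13.2 and 14.8 FPKM in the wild types, was the 1 of 31 (3.23%) with an unadjusted p under 0.05, against 11.5% of all. The 2 heterozygotes are among the last 4 libraries in the order of the deposit and the 2 wild types among the first 4, so that genotype and that order cannot be told apart within the controls, and a comparison of the nulls with either control genotype runs partly along that order too. Of the genes just named, Sox18 and Egfl7 were called higher and Fli1 and Flt1 lower in the first 4 than in the last 4 libraries, and the part of that order in their genotype differences was not tested.

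Many of the endothelial genes were low in the same embryo. Wild type 1 was the lowest library for 16 of the 31 genes and the highest for 0, and its median level relative to each gene's mean was −0.15 on the log2 scale. The medians of the other controls were −0.09 for heterozygote 1, −0.03 for heterozygote 2 and 0.06 for wild type 2, and those of nulls 1 to 4 were 0.03, 0.07, 0.01 and 0.08. Wild type 2 was the highest library for 9 genes and null 4 for 8. How often each library was lowest or highest among all tested genes is not given here. These counts are thus not read as particular to endothelial genes. Summed over the 33 genes, the level was 339 to 361 FPKM in the nulls and 311 to 367 FPKM in the controls, so the null range lay inside the control range.

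**Figure D4:**
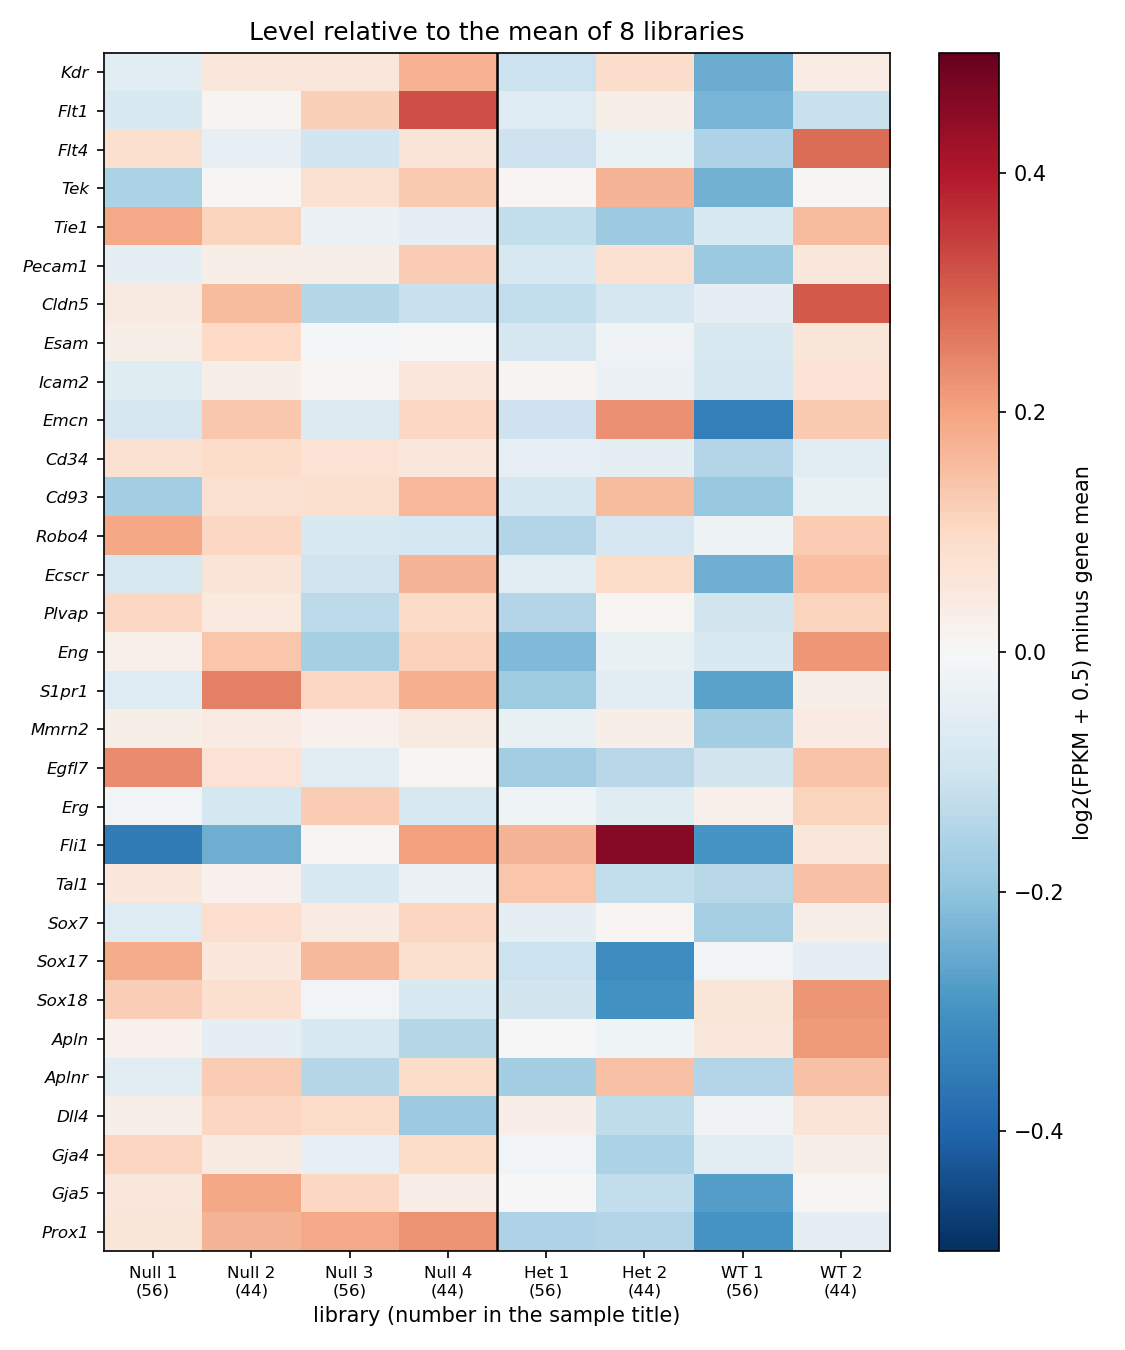
Level of the 31 tested endothelial genes in each library, as log2(FPKM + 0.5) minus the mean of the gene over 8 libraries (red high, blue low), with nulls left of the line, heterozygotes and wild types right of it, and the number of the sample title in brackets. Wild type 1 is blue for most genes, and libraries with title number 44 are more often red than those with 56.

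The number in the title went with part of this pattern. With genotype in the model, 27 of the 31 genes were below 0 in log2 difference between title number 56 and title number 44, and the median was −0.10, beside −0.0015 over all tested genes. None was called (limma, 0 of 31, where 0.0368% of all tested genes were called), and 8 of 31, or 25.8%, had an unadjusted p under 0.05, where 7.03% of all tested genes did. Those 8 were Aplnr, Emcn, Ecscr, Eng, S1pr1, Kdr, Cd93 and Pecam1, each lower with title number 56. Emcn, a sialomucin of veins and capillaries, was at 6.29 to 7.70 FPKM with title number 56 and 8.74 to 9.59 FPKM with 44, and Aplnr was at 25.3 to 27.4 FPKM with 56 and 30.4 to 31.6 FPKM with 44. Neither gene overlapped between the title numbers. Values were wholly lower with 56 for 4 of the 31 genes, or 12.9% (Aplnr, Ecscr, Emcn and Mmrn2), against 2.24% of all tested genes. They were wholly higher with 56 for 0 of the 31 and for 273 of the 13600 tested genes, and that 0 is not read as a result. The log2 difference was −0.30 ± 0.06 (standard error) for Emcn and −0.26 ± 0.05 for Aplnr (limma, adjusted p = 0.513 and 0.475). Without wild type 1 or without wild type 2, either of which removes the wild types from this contrast, 19 genes were below 0 and the median was −0.05. Without either heterozygote, 28 genes were below 0 and the median was −0.13. Other cell markers were also on 1 side of 0 in this difference: 12 of 12 macrophage genes and 8 of 8 skeletal muscle genes were below 0 (medians −0.17 and −0.11) and 12 of 12 epithelial genes above it, with 0 called, and their part in the endothelial difference was not tested. The summed epithelial level was 242 to 312 FPKM with 56 and 216 to 257 FPKM with 44. An interaction of null or control with title number was called for 0 of the 31 genes and for 0 of the 13600 tested genes (limma). An unadjusted p under 0.05 was found for 0 of the 31, where the smallest was 0.184, and for 209 of all tested genes. The 95% interval of the interaction ran from −0.62 to 0.95 for Fli1. These tests thus do not show that the null-control difference was the same with both title numbers.

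Calls were made between the first 4 libraries (null 1, null 2, wild type 1 and wild type 2) and the last 4 (null 3, null 4, heterozygote 1 and heterozygote 2). This division was known from earlier results of these data, and no label gives it for all 8 libraries. Among the controls it is also wild type against heterozygote, and there the order and the genotype cannot be told apart. With null or control in the model, 7 of the 31 genes were called, or 22.6%, against 40.6% of all tested genes. Tie1, Cldn5, Robo4, Egfl7 and Sox18 were higher and Flt1 and Fli1 were lower in the first 4. Sox18 averaged 13.8 ± 0.73 FPKM in the first 4 and 11.6 ± 1.01 FPKM in the last 4 (SD, n = 4 each), a log2 difference of 0.24 (limma, adjusted p = 0.0200). Fli1 averaged 12.8 ± 1.76 FPKM in the first 4 and 17.3 ± 2.32 FPKM in the last 4, a log2 difference of −0.42 (limma, adjusted p = 0.00987). The count was 4 without null 1, 3 without null 4 and 3 without heterozygote 2.

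The direction of this difference went with the GC content of the transcript, in the endothelial genes as in all genes. Of the 9 endothelial genes whose longest transcript has a GC content of 55% or more, 9 were higher in the first 4 libraries, as were 93.1% of all tested genes in that range. Of the 8 under 50%, 0 were higher; among all tested genes 6.96% were higher under 45% and 28.9% between 45 and 50%. Between 50 and 55%, 7 of 14 endothelial genes and 75.3% of all tested genes were higher. Sox18 has the highest GC content of the 7 called genes, 60.9%, and Fli1 the lowest, 44.5%. Skeletal muscle markers moved with the same division: all 8 were called higher in the first 4 libraries, where their summed level was 96.7 to 308 FPKM, against 65.5 to 126 FPKM in the last 4. Of the other lists, 6 of 11 pericyte and smooth muscle genes were called higher in the first 4, as were 6 of 12 erythroid genes with 1 lower, 3 of 8 mesenchymal genes with 4 lower, 3 of 12 epithelial genes, 2 of 12 macrophage genes and 1 of 8 megakaryocyte and progenitor genes. Of the neuronal and Schwann cell precursor genes 0 of 7 each were called, though 7 of 7 neuronal genes were below 0 (median −0.63). Over all tested genes 40.6% were called between these libraries. The part of GC content and of these cell markers in the 7 calls was not tested. An interaction of null or control with this division was called for 0 of the 31 genes and for 0 of the 13600 tested genes (limma). An unadjusted p under 0.05 was found for 0 of the 31, where the smallest was 0.139, and for 128 of all tested genes. The 95% interval of the interaction ran from −0.41 to 0.76 for Emcn. These tests thus do not show that the null-control difference was the same in the first 4 and the last 4 libraries.

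**Figure D5:**
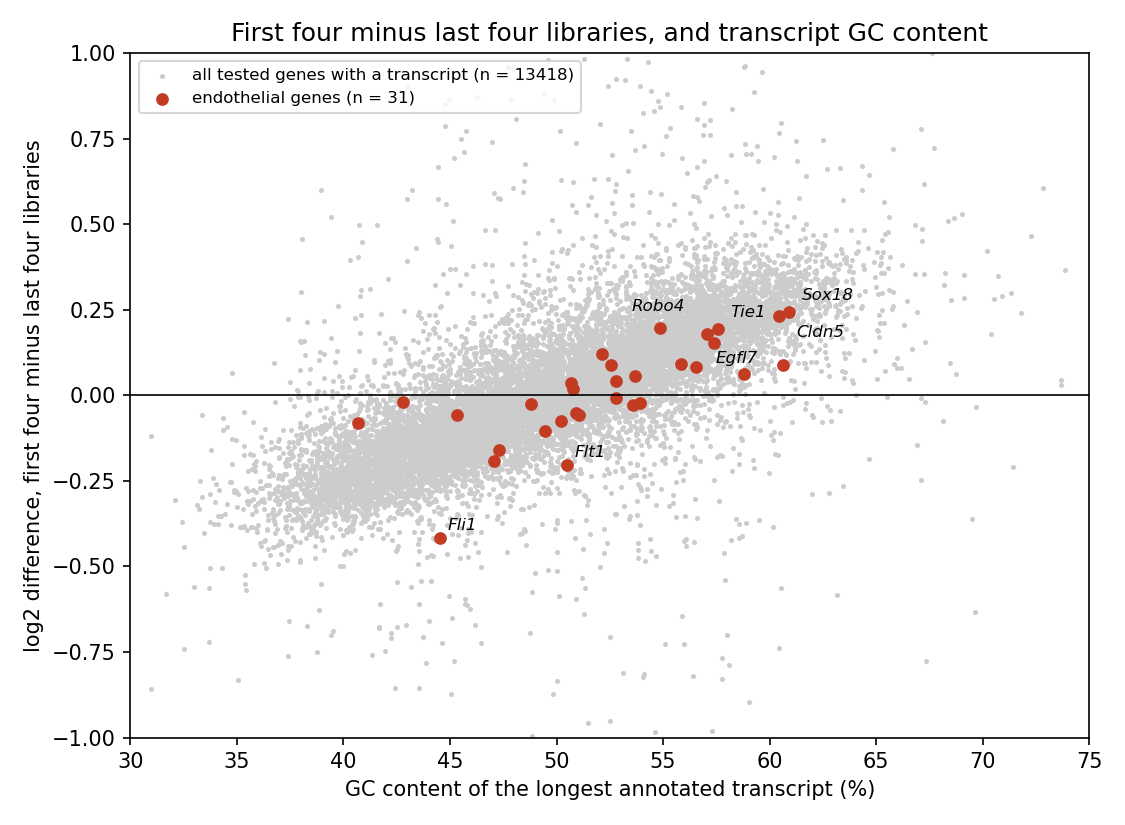
Log2 difference between the first 4 and the last 4 libraries against the GC content (%) of the longest annotated transcript, for 13418 tested genes with a transcript in the annotation (grey; 67 lie outside the axes) and the 31 endothelial genes (red, with the 7 called genes named). Grey and red points climb together: 9 of 9 endothelial genes at 55% GC or more lie above 0, and 0 of 8 under 50% do.

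The partners of these genes were followed in a list of ligands, co-receptors and other components of the vascular pathways, of which 22 were measured and 19 tested. Between null and control 0 of 19 were called, 8 were above 0 and 11 below, and the median log2 change was −0.01. An unadjusted p under 0.05 was found for 4 of the 19, against 7.15% of all tested genes. Higher in null were Nr2f2 and Sema3e, a semaphorin that repels vessels through Plxnd1, with log2 changes of 0.33 and 0.50. Lower in null were Jag1, a Notch ligand, and Efnb2, the arterial ephrin, with −0.15 and −0.18. Ephb4, an ephrin receptor that marks veins, and Nrp2, a co-receptor for VEGF-C and semaphorins, had the highest means, at 70.7 to 85.0 and 37.3 to 38.8 FPKM in the nulls against 68.9 to 82.2 and 36.5 to 40.4 FPKM in the controls. Vegfa, the ligand of Kdr and Flt1, averaged 32.2 ± 2.17 FPKM in the nulls and 30.004 ± 1.89 FPKM in the controls (SD, n = 4 each; limma, adjusted p = 0.872). Between null and wild type 1 of 19 was called: Nr2f2, a nuclear receptor that sets venous identity and acts in mesenchyme too, was at 27.0, 28.5, 27.8 and 30.7 FPKM in the nulls, against 21.2 and 20.02 FPKM in the wild types, with the heterozygotes between at 25.2 and 23.8 FPKM. Its log2 change against wild type was 0.46 (limma, adjusted p = 0.0316); it kept the call in 8 of 17 alternatives, and the adjusted p was 0.188 without wild type 1 and 0.306 without wild type 2. Between the first 4 and the last 4 libraries 6 of 19 partners were called, or 31.6%, against 40.6% of all tested genes. Vegfb, Plxnd1, Notch1 and Ephb4 were higher and Efnb2 and Nr2f2 lower in the first 4. The log2 difference of Nr2f2 there was −0.16 (limma, adjusted p = 0.0403). Both wild types are in the first 4 and both heterozygotes in the last 4, so for Nr2f2 the order of the libraries and the control genotype cannot be told apart.

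Further endothelial genes outside the 34 gave a similar picture, with 0 of 18 tested called between null and control, 15 above 0 and a median log2 change of 0.10. An unadjusted p under 0.05 was found for 3 of the 18, against 7.15% of all tested genes. Vwf, the clotting factor carrier of endothelium, and Calcrl, the receptor that Ramp2 joins, had log2 changes of 0.43 and 0.37. Pdpn, a sialoprotein of lymphatic endothelium and of many other cells, had −0.22. Cdh5 and Ramp2, a receptor partner for adrenomedullin, had the highest means in that list and log2 changes of 0.02 and −0.02. Wild type 1 was the lowest library for 11 of these 18 genes, and 15 of the 18 were below 0 in log2 difference between title number 56 and 44.

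Markers of neighbouring cells were set beside these values. Of 11 tested pericyte and smooth muscle genes 1 was called higher in null, Rgs5, a regulator of G-protein signalling that marks pericytes, the cells that wrap small vessels. It was at 10.8, 14.5, 15.1 and 13.2 FPKM in nulls 1 to 4, against 8.50 and 8.23 FPKM in the heterozygotes and 7.28 and 5.65 FPKM in the wild types. No null overlapped a control. The log2 change was 0.82 ± 0.14 (standard error; limma, adjusted p = 0.0496). The call was lost without any 1 of the 8 libraries, with log2 changes of 0.70 to 0.91 and adjusted p-values of 0.0513 (without null 1) to 0.174 (without null 2), and it was kept in 3 of 20 alternatives. Pdgfrb and Acta2, the most abundant genes of that list, and the other 8 were not called between null and control. Over the 11 genes 8 log2 changes were above 0 and 3 below, with a median of 0.10. Between null and wild type Rgs5 was called too (limma, adjusted p = 0.0298, and 0.0753 without null 2). That call was kept in 1 of 8 fits with 1 library left out. The log2 change was 0.99 with all libraries, 1.16 without wild type 1 and 0.82 without wild type 2, where 1 wild type remained. Between null and wild type 6 of the 11 genes were below 0, and the median was −0.07.

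Of the remaining lists, 0 of 12 erythroid, 0 of 12 macrophage, 0 of 8 megakaryocyte and blood progenitor, 0 of 12 epithelial, 0 of 8 skeletal muscle, 0 of 7 neuronal and 0 of 7 Schwann cell precursor genes were called between null and control (limma), and at an unadjusted p under 0.05 there were 1, 1, 2, 3, 1, 1 and 0 of them in that order. Of all tested genes 7.15% passed that unadjusted limit and 0.419% were called. Of the 8 mesenchymal genes Osr2 was called higher and Msx1 lower in null. The summed level of the erythroid genes, led by Hbb-y and Hba-x, was 1433 to 1720 FPKM in the nulls and 1598 to 2472 FPKM in the controls, that of the macrophage genes, led by C1qb and Tyrobp, was 58.1 to 81.4 FPKM in the nulls and 52.9 to 73.6 FPKM in the controls, and Cd163 was at 0 in all nulls and in both heterozygotes. The summed megakaryocyte and progenitor level, led by Gp1bb and Kit, was 31.6 to 36.4 FPKM in the nulls and 35.1 to 42.9 FPKM in the controls. The skeletal muscle sum, led by Actc1 and Myog, was 73.6 to 308 FPKM in the nulls and 65.5 to 206 FPKM in the controls. In each of these lists the groups overlapped. Single genes leaned to 1 side in several of them: in log2 change between null and control, 8 of 8 skeletal muscle genes were above 0 (median 0.77), 7 of 7 neuronal genes were below 0 (median −0.30) and 11 of 12 erythroid genes were below 0 (median −0.30), beside the endothelial median of 0.06. Between null and wild type, 8 of 12 erythroid genes had an unadjusted p under 0.05, against 11.6% of all tested genes, with a median log2 change of −0.43. The part of these lists in the levels of Cd34, Prox1, Sox17 and Gja5 was not tested.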

How the data were processed

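Poly(A) RNA of palatal shelves was sequenced from 4 null, 2 heterozygous and 2 wild-type embryos, with libraries from a TruSeq kit that does not mark strand, per the labels' protocols. The deposited values are FPKM; the submitters' processing notes name Novoalign 2.08.03, DESeq2 and the build mm10. How reads were counted, with which annotation and filters, is not given in the sources used here. FPKM values of all 19083 genes came out as whole reads (tolerance 0.03 of a read), which gave the depth, and no 2 libraries of 1 genotype agreed within sampling noise (chi-square per degree of freedom 11.4 to 46.3). Symbols (18752 of 19083 identifiers), positions and GC content came from GENCODE M21 on GRCm38. The 13600 genes that reached 1 FPKM in 2 libraries or more were tested with limma 3.58.1 in R 4.3.3 on log2(FPKM + 0.5), with empirical Bayes and a mean-variance trend, two-sided, with Benjamini-Hochberg adjustment over all tested genes, and called at an adjusted p under 0.05; fold changes on this scale understate those of low genes. The test was checked on simulated data with independent noise in each library. Those data held no difference between first and last libraries or between title numbers, which the check thus does not cover. Figures and summaries used Python 3.11.15, pandas 2.3.3 and matplotlib 3.10.9. The table held 0 columns of other samples. The genes, the lists and the comparisons were chosen with earlier results of these data known. Values in every library are given for endothelial genes called in a genotype comparison or between the first 4 and last 4 libraries. They are also given for endothelial genes whose null and control values did not overlap, the 2 most abundant of each role and Kdr, Pecam1, Sox17 and Apln. For Lyve1 ranges of reads are given instead. Other genes are named where a count is spelled out. The replicate numbers follow the order of the deposit and only name a library. Alternatives varied the pseudocount (0.1, 1), the filter (none, mean FPKM of at least 5), the scaling, blocks, subsets of libraries and the libraries left out.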

Additional observations from a re-analysis of the deposited data

Results flagged for a closer look

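In 66 groups of 4 libraries (33 genes, null and control), 2 had 1 library far from the other 3; chance gives about 1 in 20. Cldn5 was at 17.36 FPKM in wild type 2, against 12.75 to 13.47 FPKM in the other controls. Cd34 was at 24.53 FPKM in wild type 1, against 26.14 to 26.46 FPKM in the other controls. With wild type 1 left out, the log2 change of Cd34 between null and control was 0.12 (limma, adjusted p = 0.716), beside 0.15 with all libraries.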

How the results depend on the processing

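Between null and control, 0 endothelial genes were called under each of the 20 alternatives (limma). Some alternatives kept only a subset of the libraries. Pax9 itself missed the call in at least 1 of the 20 (highest adjusted p = 0.217, limma), so an absence of calls there tells little. At an unadjusted p under 0.05 there were 5 endothelial genes with all libraries, where 7.15% of all tested genes passed. There were 5 by limma-voom on the recovered reads, an alternative chosen after seeing the data, and 7 with the first 4 and last 4 libraries as a block. The shares of all genes in those settings are not given here, so these counts are not read as a result. The lowest adjusted p of any endothelial gene in any of the 20 alternatives was 0.0757 (limma), for Cd34 with that block. The median log2 change was 0.02 to 0.10 over these alternatives, and 18 genes kept their sign in all of them while 13 did not. With 1 library left out at a time, the genes called between the first 4 and the last 4 numbered 3 to 6, beside 7 with all libraries; Robo4, Fli1 and Sox18 kept the call in all 14 alternatives, Tie1 in 11, Cldn5 in 8 and Flt1 and Egfl7 in 7. Over all genes, 57 were called between null and control, 16 to 52 with 1 library left out and 176 with the first 4 and last 4 as a block.

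Libraries that share a title number were compared as possible pairs. The correlation of their deviations was 0.09 for null and wild type, 0.20 for null and heterozygote and 0.35 for heterozygote and wild type. All were above 0, and without a reference value they do not decide whether the number pairs the libraries. The main fits did not use it as a pairing. With the title number as a block, 0 endothelial genes were called between null and control, null and wild type, null and heterozygote, and heterozygote and wild type. Negative-binomial tests of the recovered reads had been planned and were not run, and limma-voom was run on those reads in their place; protein comparisons were not run either. The 95% intervals of the log2 change between null and control reached 0.50 upward (Prox1) and −0.56 downward (Fli1).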
